A study of Mus musculus with 7 samples.

Results

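Ribosome biogenesis and nucleolar genes that are known as targets of Myc were measured in cells of 7 mouse liver libraries. The set held 34 genes of the 32285 listed in the matrices, and its members were taken by symbol, each matching 1 gene. They are 3 RNA polymerase I subunits, 3 box C/D and 4 box H/ACA snoRNP proteins, 4 nucleolar scaffold and chaperone proteins, 6 genes of 40S assembly, 12 of 60S assembly and 2 growth genes outside ribosome assembly. The labels describe every library, NEJ634, NEJ638, NEJ709, NEJ723, NEJ654, NEJ677 and NEJ687, as liver from a mouse model of hepatoblastoma and put none in a group. The study's text calls NEJ634, NEJ687, NEJ723 and NEJ709 tumors, and healthy livers are described beside them. Its tumors came from ABC-Myc mice, in which Cre under the albumin enhancer and promoter (Alb-Cre) opens a CAG-driven human MYC transgene in hepatocytes on a C57BL/6J background, and its controls were littermates without Cre, the transgene or both. Age is not given for these libraries. The description of NEJ709 carries the name NEJ634, although the matrices differ. Since no label gives a group, each library is reported on its own, without a test between libraries and with no library counted as a replicate.

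Ribosomes are built in the nucleolus, where RNA polymerase I transcribes the rRNA precursor, snoRNPs guide its chemical modification, and processome and assembly factors cut and fold it into the small and large subunits. Myc is a transcription factor that binds E-box sequences with its partner Max, and genes for this machinery are among its best known targets. Hepatocytes of a resting liver grow and divide little, whereas progenitors of red cells and granulocytes build many ribosomes before they mature.

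The E-box that Myc and Max bind is shown here because the set is defined as Myc targets. Of the 34 members, 29 had a promoter entry in the RefSeq table, spanning 250 bases before to 50 after the gene's start on GRCm38.p6. The letters CACGTG, which read the same on both strands, were found in 5 of these 29, or 17.2%, against 7.24% of 27025 promoters of the same length. CACGCG was found on either strand in 9 members, or 31.0%, against 9.36% of all promoters, and CATGTG in 6, or 20.7%, against 14.1%. A match is a description of the letters and not a measured site. The stretches below are written along each gene's own strand with the E-box in capitals. They lie at chr6:125131811-125131840 (plus strand, Nop2), chr17:71616220-71616249 (plus, Wdr43), chr11:3963965-3963994 (plus, Pes1), chr11:82908355-82908384 (minus, Nle1) and chr10:88826765-88826789 (minus, Utp20). In Nop2 the E-box begins 60 bases before the start, and in Wdr43, Pes1, Nle1 and Utp20 its first base is base 18, 3, 24 and 38, counted from 1 at the start.
Nop2: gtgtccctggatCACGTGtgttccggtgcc
Wdr43: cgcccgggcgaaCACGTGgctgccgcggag
Pes1: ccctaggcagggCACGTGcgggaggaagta
Nle1: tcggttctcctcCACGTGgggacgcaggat
Utp20: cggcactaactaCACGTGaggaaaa

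The libraries held 40214395 (NEJ638) to 132485391 UMIs (NEJ634), a UMI being 1 captured RNA molecule, and 70762 cells were analysed. A level is the members' UMIs summed over the cells of a library or class per 1000000 UMIs (CPM), with an exact 95% Poisson interval that covers counting error only. Cells were clustered without the members, and clusters were named from marker genes, which gave 16 classes called "-like" and 13 clusters without a name. Of the barcodes kept as cells, 1988 also occurred in another library and were left out. In NEJ709, 92.1% of the analysed cells, and in NEJ634 26.9%, fell in 2 clusters whose profile was close to the ambient profile, which stands for the RNA outside cells. In NEJ634 the ambient profile also took in barcodes over 500 UMIs that were not called as cells. These 2 clusters stayed unnamed, so NEJ709 is represented by few cells in each class.

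Over all analysed cells the summed member level was 6479 CPM in NEJ634, 5219 in NEJ687, 4789.8 in NEJ723, 2329.8 in NEJ709, 1976 in NEJ677, 1966 in NEJ654 and 1821 in NEJ638. NEJ634, NEJ687 and NEJ723 were thus high, and the other libraries lay lower, NEJ638, NEJ654 and NEJ677 close together and NEJ709 above them. The highest library was 3.56-fold (95% counting interval 3.52 to 3.60) above the lowest. Without the clusters close to the ambient profile NEJ634 had 6670.4 CPM and NEJ709 2925 CPM, and the ratio was 3.66. The ambient profile itself followed part of this order, with 6471 CPM in NEJ687, 4949 in NEJ634, 4016 in NEJ723, 1972 in NEJ709, 1446 in NEJ654, 1413 in NEJ677 and 847 in NEJ638. NEJ687 was the library whose cells were below its ambient profile, at 0.807 of it. Hemoglobin took 4.67% (NEJ634) to 27.2% (NEJ709) of the UMIs of analysed cells. With hemoglobin and mitochondrial UMIs left out of the total, NEJ634, NEJ687 and NEJ723 had 7148, 6797 and 6704 CPM, NEJ709 had 3707 and the other libraries 2207 to 2339.

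Most members were high in the same libraries. Of the 34, 28 were highest in NEJ634, 5 in NEJ687 and 1, Wdr12, in NEJ723, and for 31 the top 3 libraries were these. How many of all genes have the same order is not given here. The lowest library was NEJ638 for 14 members, NEJ709 for 9, NEJ654 for 6 and NEJ677 for 5. In NEJ709 92.1% of these cells lay in clusters close to the ambient profile. The ratio of the highest to the lowest library ran from 2.06 for Polr1c, a subunit shared by RNA polymerases I and III, to 9.40 for Odc1, the first enzyme of polyamine synthesis, with a median of 3.63. Npm1 and Ncl together gave 43.6% to 53.6% of the members' UMIs, and the other 32 members alone differed 2.94-fold between NEJ634 and NEJ638.

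**Figure D1:**
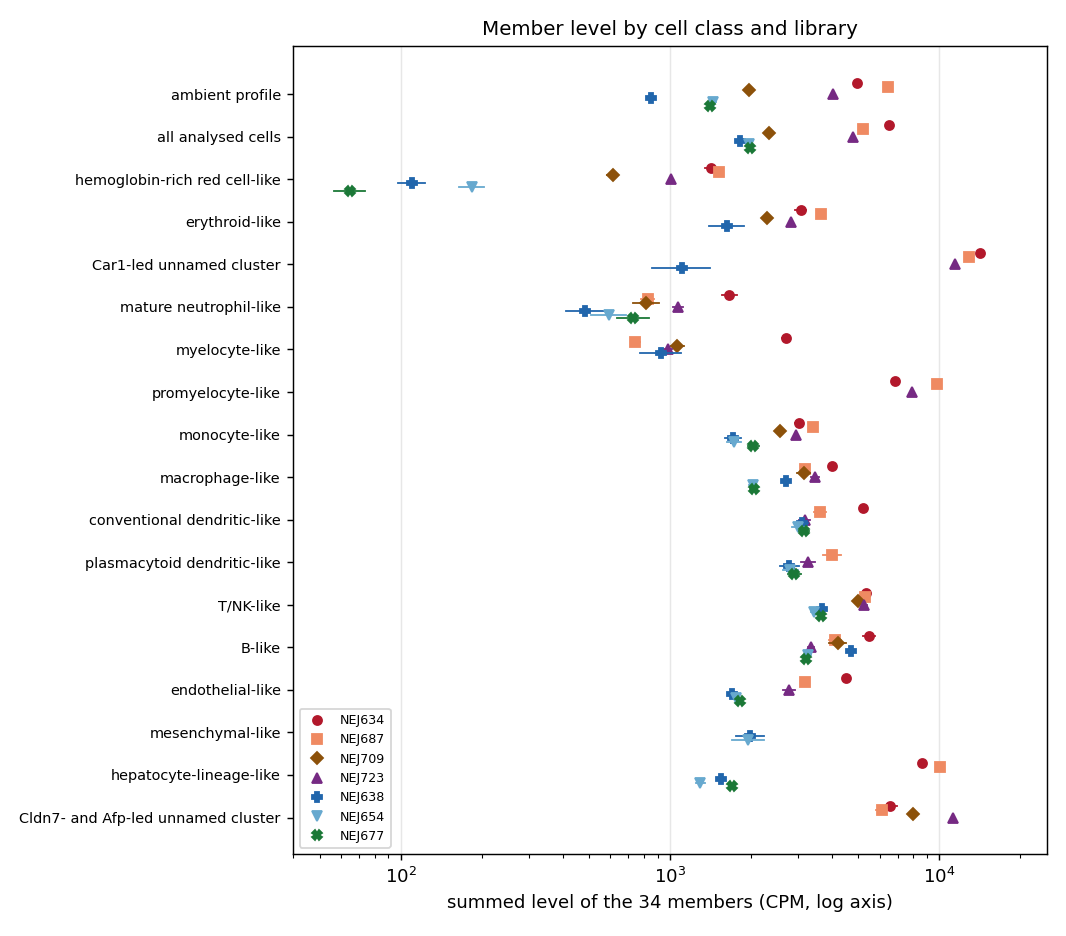
Summed level of the 34 members (CPM, log axis) in the ambient profile, all analysed cells, cell classes and the 2 unnamed clusters described, 1 point per library with at least 20 cells, with its 95% counting interval. In hepatocyte-lineage-like cells NEJ634 and NEJ687 lie at 8589 and 10099.6 CPM and the other libraries at 1297 to 1699. In T/NK-like cells NEJ634, NEJ709, NEJ723 and NEJ687 lie between 4986 and 5351, and NEJ638, NEJ654 and NEJ677 between 3412 and 3684.

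Hepatocyte-lineage-like cells showed the widest gap among libraries of any class other than hemoglobin-rich red cells. Their summed level was 10099.6 CPM (10003 to 10197) in NEJ687 with 278 cells and 8589 (8549 to 8628) in NEJ634 with 4804 cells. It was 1699 (1655 to 1743) in NEJ677 with 906 cells, 1545 (1498 to 1593) in NEJ638 with 331 and 1297 (1245 to 1351) in NEJ654 with 497. No interval of the first pair came near those of the other libraries, and NEJ687 exceeded NEJ654 7.79-fold (7.47 to 8.12). Within the pair NEJ687 was 1.18-fold above NEJ634. NEJ709 and NEJ723 had 5 such cells each, too few for a level.

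The class was built from different clusters in the 2 sets of libraries. In NEJ634 and NEJ687 96.4% and 97.5% of it came from a cluster led by H19, Igf2 and Afp, genes of the fetal liver. In NEJ638, NEJ654 and NEJ677 it came from a cluster led by Serpina3k, Mup3 and Alb and from one led by Fabp1, Akr1c6 and Car3, genes of mature hepatocytes. One of these clusters gave 94.6% of the class in NEJ638, 48.9% in NEJ654 and 15.5% in NEJ677, and the other gave the rest. Alb, the main plasma protein, was at 4173 and 3209 CPM in NEJ634 and NEJ687 and at 25523 to 55645 in the other 3, and the 14 hepatocyte markers summed to 28544 and 34549 against 75222 to 129418 CPM. These secreted proteins fill part of the total against which every other gene is expressed, and their part in the member levels was not tested. Ambient RNA made up an estimated 9.55% of the class in NEJ634, 5.53% in NEJ638 and 1.14% to 2.99% in the other 3, and subtracting it gave a ratio of 7.89. Weighting every cell equally gave 6.34.

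The 4 nucleolar scaffold and chaperone genes gave 4888 and 5473 CPM of this level in NEJ634 and NEJ687 and 452 to 673 CPM in the other libraries. Npm1, a nucleolar histone chaperone, was at 3010.1 CPM in NEJ687, 2592 in NEJ634, 396 in NEJ677, 228 in NEJ654 and 212 in NEJ638. Ncl, nucleolin, which packs and remodels rDNA chromatin and pre-rRNA, was at 2118 and 2031 CPM in NEJ687 and NEJ634 and at 240.2, 234 and 189.9 in NEJ677, NEJ638 and NEJ654. For both genes either library of the first pair lay far above each of the others. Nolc1, a scaffold that brings snoRNPs to the nucleolus, had the widest range of the set at 27.8-fold (19.6 to 40.5), from 9.75 CPM in NEJ677 through 18.1 and 22.8 in NEJ654 and NEJ638 to 189 in NEJ634 and 271 in NEJ687. Npm3 was at 76.3, 75.1, 26.3, 19.8 and 15.9 CPM in NEJ634, NEJ687, NEJ677, NEJ638 and NEJ654. Without Npm1 and Ncl the other 32 members still differed 5.66-fold between NEJ687 and NEJ654.

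The RNA polymerase I subunits together had 177 and 132 CPM in NEJ687 and NEJ634 and 27.2 to 34.6 in the other libraries. Polr1a, the largest catalytic subunit, was at 72.5, 59.2, 11.04, 8.78 and 6.20 CPM in NEJ687, NEJ634, NEJ638, NEJ654 and NEJ677. Polr1b, the second catalytic subunit, ranged from 5.32 to 44.7 CPM and Polr1c from 15.4 to 59.9. All 3 had the same pair on top.

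The box C/D proteins carry out 2′-O-methylation of rRNA. Fbl, the methyltransferase fibrillarin, was at 189 and 161 CPM in NEJ687 and NEJ634 and between 35.8 and 40.2 in the other libraries. Nop56 was at 237 and 202 CPM in NEJ687 and NEJ634 and at 25.1, 15.9 and 10.0 in NEJ638, NEJ654 and NEJ677, a range of 23.6-fold (16.8 to 34.3). Nop58 departed from this split. It was at 221 and 211 CPM in NEJ634 and NEJ687, at 109 in NEJ638 and at 24.1 and 23.6 in NEJ654 and NEJ677, so that NEJ638 lay in between. Endothelial-like cells of NEJ638 also had more Nop58, 93.6 CPM, than those of NEJ654 and NEJ677, with 47.2 and 57.4.

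The box H/ACA proteins convert uridine to pseudouridine in rRNA and also bind telomerase RNA. Dkc1, the pseudouridine synthase dyskerin, was at 131 and 113 CPM in NEJ687 and NEJ634 and at 13.6 to 17.0 in the others. Nhp2 was at 620 and 364 CPM against 63.7 to 75.0, and Gar1 at 52.9 and 54.0 against 7.23 to 11.2. Nop10 had the narrowest range of the set, 3.41-fold, with 802, 537, 354, 328 and 235 CPM in NEJ687, NEJ634, NEJ677, NEJ638 and NEJ654.

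Genes of 40S assembly summed to 370.0 CPM in NEJ687, 297 in NEJ634 and 61.3 to 68.2 in the other 3 libraries. Wdr43, a processome subunit, was at 149.5 and 122 CPM in NEJ687 and NEJ634 against 18.1 to 20.9. Nop14 had 77.8 and 65.3 against 14.8 to 23.0, and Utp20 36.2 and 31.6 against 5.61 to 13.7. Rrp9, Rrp12 and Bysl were counted with few UMIs outside the pair, down to 5 UMIs of Rrp12 in NEJ654, and were at 20.4 to 51.4 CPM in the pair and 2.74 to 11.2 in the other libraries.

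Genes of 60S assembly summed to 1203 and 1009 CPM in NEJ687 and NEJ634 and to 220.0, 226 and 269.7 in NEJ638, NEJ654 and NEJ677. Gnl3, nucleostemin, was at 228 and 204 CPM in NEJ687 and NEJ634 and at 18.1 to 33.97 in the others. Pes1, Bop1 and Wdr12, which form the PeBoW complex of pre-rRNA processing, were at 44.8 to 77.3 CPM in the pair and at 12.4 to 22.5 elsewhere. The RNA helicase Ddx21 was at 173 and 170.3 CPM against 27.4 to 39.0, and Rrp1b at 68.4 and 57.3 against 3.25 to 6.85. Ebna1bp2 and Nop16 were lower in NEJ638, at 21.7 and 21.3 CPM, than in NEJ654 and NEJ677, at 39.0 to 49.6, and were at 113 to 170 in the pair. Rrs1 ran the other way, with 32.7 CPM in NEJ638, 18.3 in NEJ677 and 10.97 in NEJ654 against 89.1 and 80.2 in the pair. Nop2, an rRNA methyltransferase, and Wdr74 were at 48.0 to 78.0 CPM in the pair and 5.49 to 23.0 outside it. Nle1 was seen with 3 UMIs in NEJ677 and ranged from 0.886 to 22.7 CPM.

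Both growth genes had the same order of the pair and the rest. Odc1 was at 328 and 321 CPM in NEJ634 and NEJ687 and at 69.7, 46.6 and 41.4 in NEJ638, NEJ654 and NEJ677. Pa2g4, which encodes a growth-regulating RNA-binding protein of the nucleolus, was at 313 and 283 CPM in NEJ687 and NEJ634 and at 72.4 to 91.9 in the others. Each of the 34 members had NEJ634 and NEJ687 as its top 2 libraries in this class, and 30 were highest in NEJ687. The share of all genes with this order is not given here, so these counts describe the members alone.

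**Figure D2:**
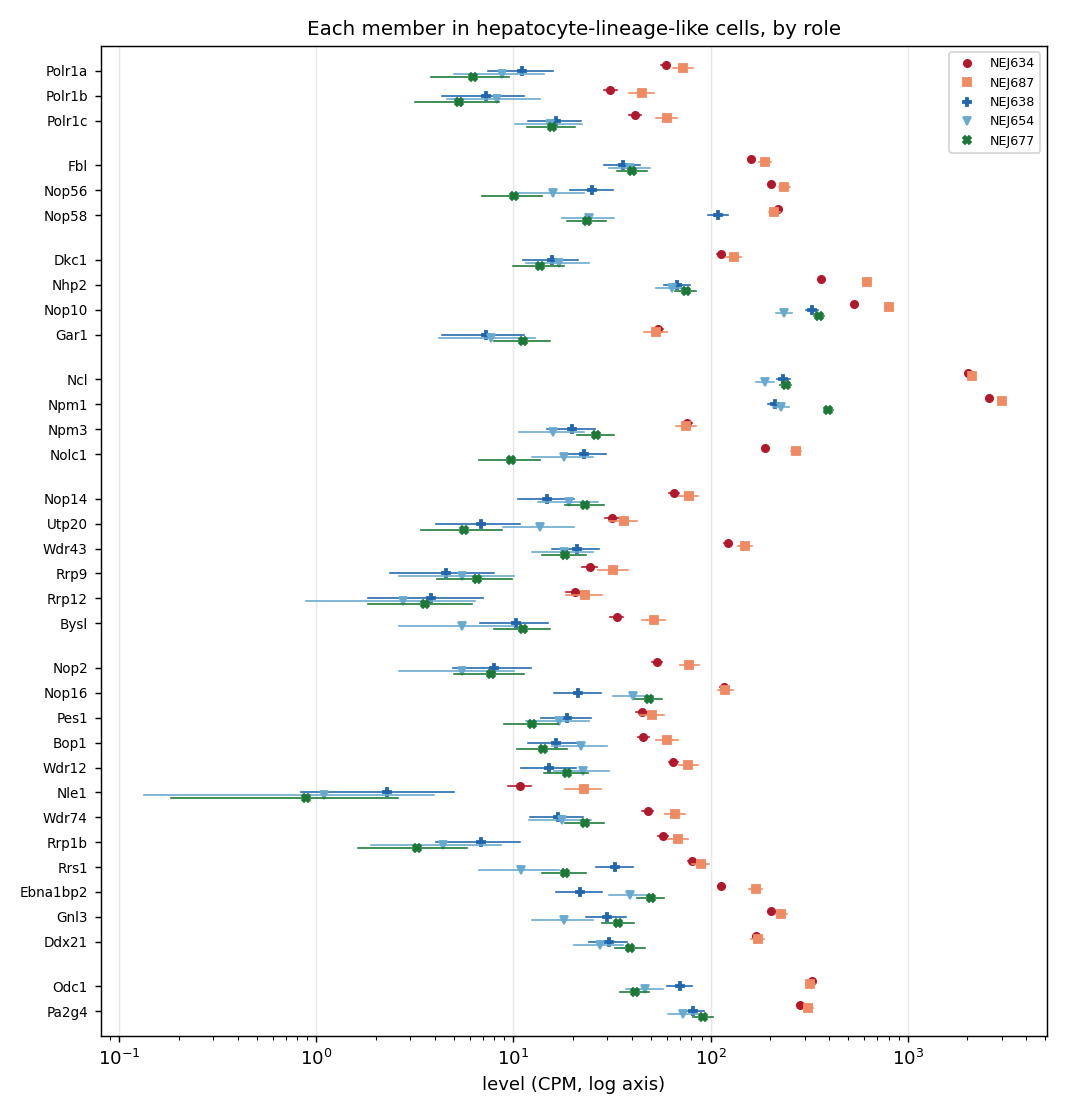
Level of each of the 34 members (CPM, log axis) in hepatocyte-lineage-like cells of 5 libraries, grouped by role, with 95% counting intervals; an interval reaching below 0.1 CPM is cut there. For every member the points of NEJ634 and NEJ687 lie to the right of the other 3, and Nop58 and Nop10 show the smallest gap to NEJ638.

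NEJ638 was taken as a fixed reference library to describe the change of each gene, with genes of at least 20 UMIs in the pair of libraries. In NEJ634 33 of 34 members were at least 2-fold higher than in NEJ638, where 26.2% of all 13071 genes were, and the exception was Nop10 with a log2 ratio of 0.71. In NEJ687 33 of 34 were higher against 20.8% of all genes, the exception being Nop58 with a log2 ratio of 0.95. No member was 2-fold lower in either, against 14.3% and 22.3% of all genes. The median log2 ratio was 2.31 in NEJ634 and 2.55 in NEJ687 for the members, and 0.29 and 0.02 for all genes tested.

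The libraries NEJ654 and NEJ677 differed from NEJ638 in few members. The shares of the mature hepatocyte clusters in the class also differed between these libraries, and their part in these counts was not tested. In NEJ654 1 of 32 members tested was 2-fold higher (5.42% of all genes), which was Utp20, and 2 were lower (13.7%), Nop58 and Rrs1. Utp20 rested on 25 UMIs in NEJ654 and 18 in NEJ638, with overlapping counting intervals. In NEJ677 2 of 33 were higher (7.65%), Ebna1bp2 and Nop16, and 4 were lower (21.5%), Nolc1, Nop56, Nop58 and Rrp1b. Rrp1b rested on 11 UMIs in NEJ677 and 18 in NEJ638, also with overlapping intervals. Median log2 ratios were -0.14 and 0.03. With NEJ654 as the reference in place of NEJ638, 34 members were higher in NEJ634 (27.9% of all genes) and 34 in NEJ687 (23.6%). With NEJ677 as the reference 33 (36.6%) and 34 (27.4%) were higher.

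Other genes of the same process were described from lists outside the set. Of 66 other ribosome biogenesis genes, 48 were at least 2-fold above NEJ638 in NEJ634 and 54 in NEJ687, with median log2 ratios of 1.31 and 1.53. Of 81 cytoplasmic ribosomal protein genes 63 and 67 were higher, and of 18 other Myc targets 12 in each. Of 20 cell cycle genes 5 and 3 were higher, near the share of all genes. That share was 26.2% in NEJ634 and 20.8% in NEJ687. Mki67, a marker of dividing cells, was at 213, 123, 136, 73.1 and 16.8 CPM in NEJ634, NEJ687, NEJ654, NEJ638 and NEJ677, so its order was not that of the members. Myc itself was at 91.2 CPM in NEJ634, and NEJ687 and NEJ638 had 53.6 and 44.9, against 5.32 in NEJ677 and 4.94 in NEJ654. The counting intervals of Myc overlapped in NEJ638 and NEJ687 (37.2 to 53.8 and 46.8 to 61.2 CPM). Any link between the Myc and member levels was not tested. Whether transcripts of the human transgene are counted under the mouse gene is not given in the sources used here.

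In NEJ723 and NEJ709 the only sizeable pool with hepatocyte genes was an unnamed cluster led by Bex1, Apoa4, Cldn7 and Afp. It held 2055 cells of NEJ723, 213 of NEJ687, 68 of NEJ709 and 53 of NEJ634, and over all its cells, mostly of NEJ723, raised 12 of 14 hepatocyte and 8 of 10 biliary markers, so no single name was given. Its summed member level was 11249 CPM (11192 to 11306) in NEJ723, 8014 in NEJ709, 6560 in NEJ634 and 6120.5 in NEJ687. The cells of NEJ687 in this cluster had mixed markers. They held 4932 CPM of erythroid, 242 of biliary and 9108 of hepatocyte markers, with Epcam, an epithelial marker, at 0 and Afp at 618. In NEJ723 the same sums were 629, 2756 and 13370.5 CPM, with Epcam at 163 and Afp at 1719 CPM. NEJ634 lay between in erythroid and biliary markers, at 1287 and 1179 CPM, with 6865 CPM of hepatocyte markers and Epcam at 23.9. The level of NEJ687, with the highest erythroid sum, is not set against the others. Npm1 was at 3807, 2063, 1873 and 1373 CPM in NEJ723, NEJ709, NEJ634 and NEJ687. The order of NEJ723, NEJ709 and NEJ634 depended on the processing. The cells of this cluster were shallow, with a median of 1029 UMIs in NEJ723 and 865 in NEJ687. Weighting cells equally gave 6785 CPM in NEJ723, 6253 in NEJ634 and 3989 in NEJ709, and at resolution 2 the nearest matching cluster had 7128, 6020.5 and 4145. NEJ709 then lay below NEJ634. Without doublet removal the values were 6218, 6299 and 4243 CPM, and with every barcode over 500 UMIs taken as a cell 4596, 5413 and 2555, so that NEJ634 was the highest of these 3. At the 10% mitochondrial limit, and with shared barcodes kept, the nearest match was the same cluster as that of the Car1-led cells described next, and NEJ634, with 12912.5 and 12891 CPM, was again above NEJ723, with 10446 and 9667.

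Pools with red-cell genes lay far apart in level within a library. An unnamed cluster led by Car1, a carbonic anhydrase of early red-cell progenitors, raised 11 of 12 erythroid, 6 of 7 basophil and mast cell and 9 of 10 exocrine pancreas markers. Its summed member level was 14166 CPM (13969 to 14366) in NEJ634 with 67 cells, 12859 (12787 to 12931) in NEJ687 with 520 and 11437 (11357 to 11517) in NEJ723 with 305, the top pool of each of these libraries. Under the 99th percentile rule alone its match in NEJ723 had 11491 CPM. The match of the Cldn7- and Afp-led cluster, which shared 9.67% of that cluster's cells, then had 12802.5. With every barcode over 500 UMIs taken as a cell, the nearest match of the Car1-led cluster was a cluster named erythroid-like. The levels there were 10527 CPM in NEJ634, 8052 in NEJ687 and 6559 in NEJ723. The 31 cells of NEJ638 in this cluster were of another kind. They had 156270 CPM of exocrine pancreas markers, 81.5 CPM of erythroid markers and a member level of 1109 CPM, against 4937 to 6604.4 CPM of erythroid and 40.1 to 68.2 CPM of exocrine markers in the other 3. These 3 libraries also had 651 to 1064 CPM of basophil and mast cell markers in the cluster, among them the basophil proteases Prss34 at 331 to 651 CPM and Mcpt8 at 136 to 257, where their erythroid-like cells had 1.02 to 28.3 CPM of these markers. The promyelocyte markers summed to 802 to 989.8 CPM in the cluster and to 182 to 192 in the erythroid-like cells. T/NK-like cells of the same libraries had 941 to 1666 CPM of this sum. Over the whole cluster 2 of 8 promyelocyte markers, Mpo and Ctsg, were raised. The part of cells with basophil, mast cell or promyelocyte markers in the member level was not tested. The cells were deep, with medians of 6597 to 22024 UMIs in NEJ634, NEJ687 and NEJ723.

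Erythroid-like cells, led by Hemgn, Rhd and histone genes, were lower. Their level was 3628 CPM in NEJ687 with 939 cells, 3058.5 in NEJ634 with 58, 2816 in NEJ723 with 873, 2287 in NEJ709 with 104 and 1629 in NEJ638 with 32. The Car1-led cluster was thus 4.63-fold, 3.54-fold and 4.06-fold above them in NEJ634, NEJ687 and NEJ723. Hemoglobin took 23.7% to 39.5% of UMIs in erythroid-like cells and under 1% in the cluster, and without hemoglobin and mitochondrial UMIs the ratios were 3.47, 2.63 and 3.11. Hemoglobin-rich red cell-like cells, where hemoglobin took 64.0% to 91.8% of UMIs, had 64.7 CPM (NEJ677) to 1515 CPM (NEJ687) of members. Erythroid-like cells were 2.16-fold to 14.8-fold above these, but 1.01-fold to 1.37-fold once hemoglobin and mitochondrial UMIs were left out in NEJ634, NEJ709, NEJ723 and NEJ687, and 2.26-fold in NEJ638.

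Within a library the erythroid-like cells were compared with T/NK-like cells, a fixed reference class. The summed level was 0.442-fold to 0.686-fold that of T/NK-like cells, and 0.630-fold to 0.924-fold without hemoglobin and mitochondrial UMIs. Odc1, a growth gene outside ribosome assembly, was a large part of the erythroid-like sums. In NEJ634, NEJ638 and NEJ709 it gave 1102 of 3058.5, 743 of 1629 and 927 of 2287 CPM. In NEJ723 and NEJ687 it gave 641 of 2816 and 909 of 3628 CPM. Ratios without Odc1 are not given here. In each of the 5 libraries 1 member, Odc1, was at least 2-fold higher, where 18.1%, 10.7%, 26.6%, 19.2% and 17.5% of all genes were in NEJ634, NEJ638, NEJ709, NEJ723 and NEJ687. Odc1 was at 1102, 743, 927, 641 and 909 CPM in erythroid-like and 263, 86.0, 385, 124 and 290.4 CPM in T/NK-like cells of these libraries, with log2 ratios of 1.27 to 3.11. It was the one member past 2-fold in this direction per total UMIs, but not in NEJ634 and NEJ638 once hemoglobin and mitochondrial UMIs were left out.

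In the same order of libraries 14 of 25, 11 of 25, 14 of 21, 23 of 34 and 12 of 34 members tested were at least 2-fold lower, against 40.2%, 40.8%, 33.1%, 38.4% and 40.6% of all genes. The share in NEJ638 and NEJ687 was near this background. Ddx21, Fbl, Nop10, Npm1 and Wdr43 were lower in all 5 libraries, Ddx21 and Fbl with 0 UMIs in the erythroid-like cells of NEJ638, where a 0 was set to 3 counts as a bound. Npm1 was at 449, 97.4, 241, 549 and 721 CPM in erythroid-like and 1955, 1010.2, 1639.7, 1819.8 and 1914 in T/NK-like cells of NEJ634, NEJ638, NEJ709, NEJ723 and NEJ687. Pa2g4 stayed close, with log2 ratios of 0.07 to 0.64. Cell cycle genes went the other way, each of the 15 or 20 tested being at least 2-fold higher, and Mki67 was at 1434 to 3326 CPM in erythroid-like cells.

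These counts moved with the total, the fold, the UMI minimum and the calling of cells. Without hemoglobin and mitochondrial UMIs in the total, 2 members were higher in NEJ634 (23.4% of all genes) and 2 in NEJ638 (18.5%), so that Odc1 no longer stood alone there. In the lower direction 6, 15 and 6 then passed in NEJ638, NEJ723 and NEJ687, against 22.6%, 31.0% and 31.9% of all genes. At 1.5-fold 2 members were higher in NEJ634 (23.7%) and in NEJ638 (14.2%) and 23 were lower in NEJ687 (50.1%). With a minimum of 1 UMI 26 of 34 were lower in NEJ709 (45.9%). With every barcode over 500 UMIs taken as a cell, the class named erythroid-like also took in 89.6% of the cells of the Car1-led cluster. There 20, 2 and 10 members were higher in NEJ634, NEJ723 and NEJ687, against 21.5%, 21.8% and 20.01% of all genes. In the same libraries 0 were lower, against 23.1%, 20.96% and 27.2%, and 8 of 30 were lower in NEJ709 (27.2%).

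The Car1-led cluster was set beside T/NK-like cells in the same way, a comparison chosen after its level had been seen. At least 2-fold higher were 28 of 34 members in NEJ634 (25.2% of all genes), 25 in NEJ687 (25.1%) and 19 in NEJ723 (25.1%), and 0 of 25 in NEJ638 (7.35%). At 1.5-fold 32 were higher in NEJ723 (38.6%). With every barcode over 500 UMIs taken as a cell, where the match is the wider class named erythroid-like, 2 were higher in NEJ723 (21.8%) and 10 in NEJ687 (20.01%). In the Car1-led cluster itself Npm1 was at 5383, 4694 and 3583 CPM in NEJ634, NEJ687 and NEJ723. Nop16, Wdr12, Nhp2 and Dkc1 were among the members higher in each of these 3 libraries, whereas Ddx21, Nop14, Nop56, Polr1c and Utp20 passed in none, with log2 ratios of at most 0.98. Myc was at 53.5, 44.3 and 49.1 CPM in the cluster and at 11.7 to 15.3 in the erythroid-like cells of the same libraries.

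Among granulocyte precursors the level was highest in the early cells. Promyelocyte-like cells, marked by the granule proteases Elane and Prtn3 and the peroxidase Mpo, had 9819 CPM (9675 to 9964) in NEJ687 with 95 cells, 7914 (7786 to 8044) in NEJ723 with 93 and 6870.0 (6761 to 6980.3) in NEJ634 with 686. Myelocyte-like cells had 742, 980 and 2699 CPM in these libraries and mature neutrophil-like cells 828, 1071 and 1660.0. NEJ634 was the highest of the 3 in both later stages. Its myelocyte-like cells came to 32.0% and 25.4% from 2 clusters that gave at most 0.299% of the class in the other two, whereas the mature neutrophil-like cells of all 3 came from 1 cluster. The estimated ambient share in NEJ634, NEJ723 and NEJ687 was 35.0%, 2.78% and 1.65% in promyelocyte-like, 11.1%, 6.60% and 2.02% in myelocyte-like and 10.3%, 15.5% and 2.71% in mature neutrophil-like cells. With ambient RNA subtracted, promyelocyte-like cells had 7864, 8000 and 9873 CPM in NEJ634, NEJ723 and NEJ687. The part of the different clusters in the myelocyte-like levels was not tested. Over all 7 libraries mature neutrophil-like cells had 484 to 1660.0 CPM, the lowest of the white cells in each library except NEJ723 and NEJ687, where myelocyte-like cells were lower.

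Promyelocyte-like cells exceeded mature neutrophil-like cells 11.9-fold (11.2 to 12.6) in NEJ687, 7.39-fold (7.05 to 7.75) in NEJ723 and 4.14-fold (3.87 to 4.43) in NEJ634. At least 2-fold higher were 33, 33 and 32 of the 34 members, against 52.0%, 43.9% and 44.7% of all genes. Polr1a was the exception in each, at 22.6, 24.5 and 35.4 CPM in promyelocyte-like and 34.6, 21.5 and 30.7 CPM in neutrophil-like cells of NEJ687, NEJ723 and NEJ634. In NEJ634 Bysl also missed the fold, with a log2 ratio of 0.33. Npm1 was at 3319, 2354 and 2117 CPM in promyelocyte-like and 220.3, 239 and 464 CPM in neutrophil-like cells of the same libraries. Gar1, Wdr12, Wdr74, Fbl and Wdr43 were higher by a log2 ratio of 3.01 or more in all 3. Of the other ribosome biogenesis genes 62 of 63, 60 of 64 and 54 of 62 were higher, and of the cell cycle genes 20, 19 and 20 of 20. When doublets were kept, the cluster that took the promyelocyte name also held 68.9% of the Car1-led cells, and the level in NEJ634 was 12701 CPM.

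**Figure D3:**
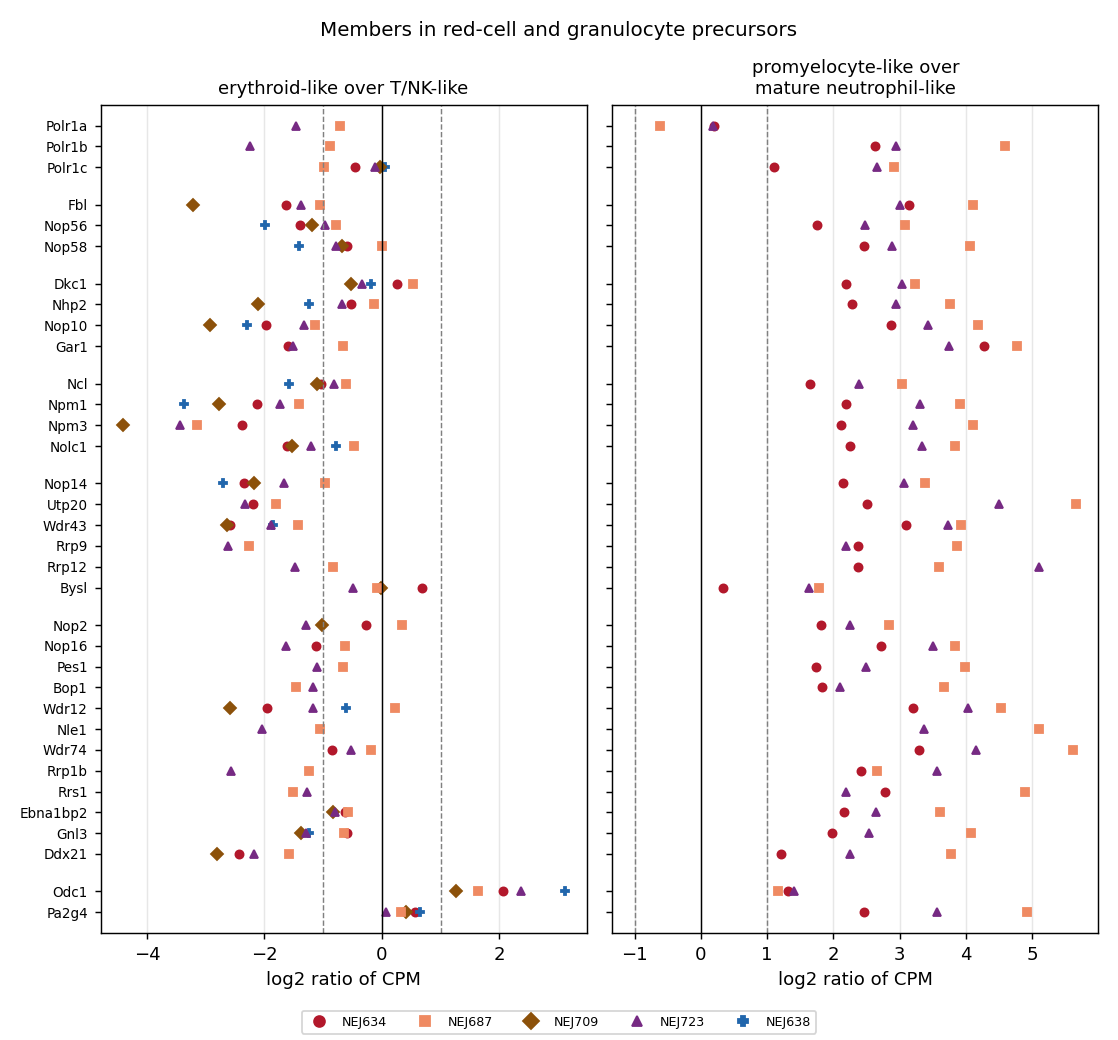
Log2 ratio of CPM for each member tested with a UMI in both pools, 1 point per library, in erythroid-like over T/NK-like cells (left, 5 libraries) and promyelocyte-like over mature neutrophil-like cells (right, 3 libraries); dashed lines mark 2-fold. On the left Odc1 alone lies beyond the upper line in each library, and on the right Polr1a alone lies short of it in each.

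**Figure D4:**
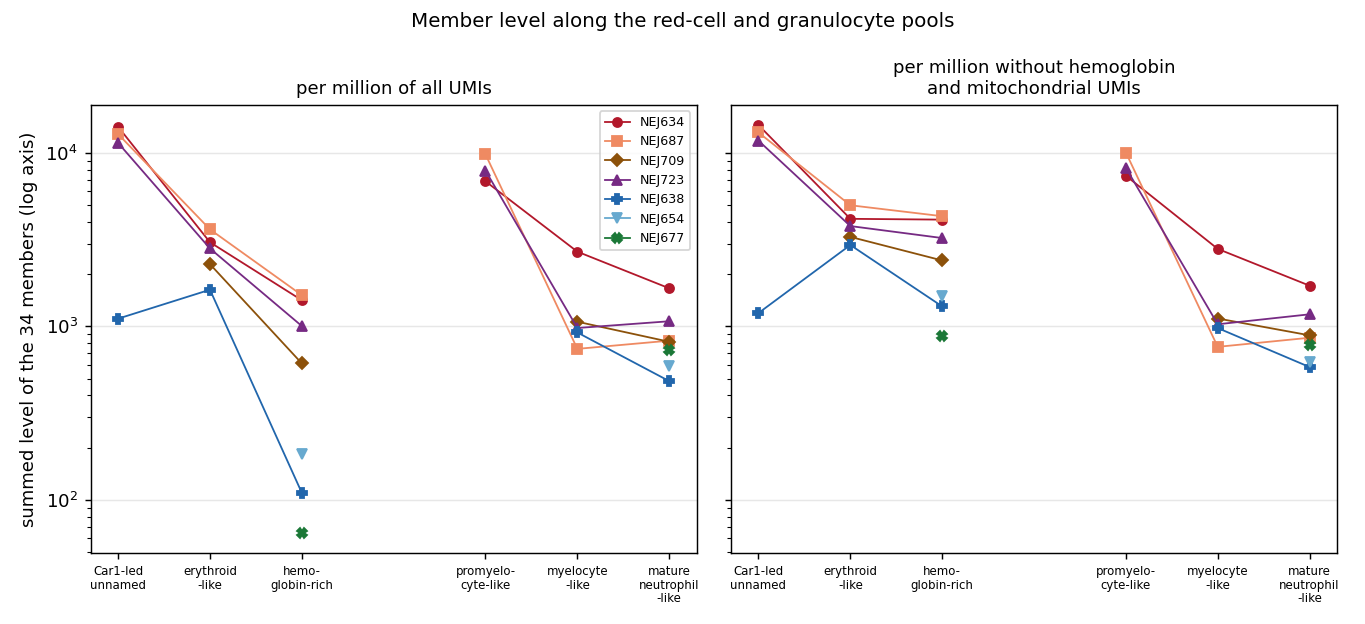
Summed member level (log axis) along the red-cell and granulocyte pools of each library, per 1000000 of all UMIs (left) and of UMIs without hemoglobin and mitochondrial genes (right); lines join pools of 1 library and do not trace cells. The step from erythroid-like to hemoglobin-rich cells is 2.16-fold or more on the left and 1.01-fold to 2.26-fold on the right, whereas the step from promyelocyte-like to neutrophil-like cells is much the same in both.

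Other classes differed in how far the libraries lay apart. Hemoglobin-rich red cell-like cells ranged 23.4-fold, myelocyte-like cells 3.63-fold and mature neutrophil-like cells 3.43-fold, whereas lymphoid and plasmacytoid dendritic-like cells had narrow ranges. Each of these narrow classes came from 1 cluster in every library reported. So did mature neutrophil-like cells, and erythroid-like and monocyte-like cells, which ranged 2.23-fold and 1.98-fold. The hemoglobin-rich class came to 89.3% or more from one cluster in NEJ638, NEJ654 and NEJ677 and mostly from a pair of others in the other 4 libraries. Without hemoglobin and mitochondrial UMIs its levels ran from 886 CPM in NEJ677 to 4322 in NEJ687. The summed level was 3412 to 5351 CPM in T/NK-like cells of 7 libraries, 3211 to 5474 in B-like cells and 2771 to 3989 in plasmacytoid dendritic-like cells of 5, ratios of 1.57, 1.70 and 1.44 between the highest and the lowest. T/NK-like cells had 4986 CPM or more in NEJ634, NEJ709, NEJ723 and NEJ687 and 3684 or less in NEJ638, NEJ654 and NEJ677. The same libraries were apart in plasmacytoid dendritic-like (3245 or more against 2899 or less), monocyte-like (2557, 2039) and mature neutrophil-like cells (816, 730). In B-like and myelocyte-like cells they were not, with NEJ638 at 4706 and 923 and NEJ687 at 4100 and 742. Macrophage-like cells ran from 2025 to 3999.9 CPM and endothelial-like cells from 1695 to 4504, with NEJ634 highest in both. Different clusters held most of these classes: one macrophage cluster gave 97.0% of the class in NEJ634, another 97.4% in NEJ723 and another 95.9% to 99.8% in NEJ638, NEJ654 and NEJ677. Of the endothelial-like cells one cluster gave 96.4% in NEJ634, another 94.9% in NEJ638 and a pair of others most of those in NEJ654 and NEJ677. In NEJ634 the estimated ambient share of these 2 classes was 34.6% and 36.2%, and their levels were below the ambient profile of that library. Endothelial-like cells of NEJ687, with an ambient share of 2.32%, had 3177 CPM and those of NEJ638, NEJ654 and NEJ677 1695 to 1813.

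The place of the hepatocyte-lineage-like cells among the classes of a library therefore differed. They exceeded T/NK-like cells 1.60-fold in NEJ634 and 1.91-fold in NEJ687, but were at 0.419, 0.380 and 0.465 of them in NEJ638, NEJ654 and NEJ677. In these 3 libraries the T/NK-like or B-like cells had the highest level, and hepatocyte-lineage-like cells stood below every other named class but the neutrophil, myelocyte and hemoglobin-rich red cell classes. In NEJ638 their interval overlapped that of the erythroid-like cells.

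Across 80 pools of a named class in a library, genes whose log2 level closely followed the summed members were Rpl4 (r = 0.954), Set (0.9503), Rpl5 (0.949) and Rpl14 (0.948), of 6482 genes considered. The pools share libraries and totals, so these values describe likeness only. Among the members r ran from 0.525 for Polr1a to 0.957 for Npm1, the members being part of the sum. The other ribosome biogenesis genes followed it with r = 0.945, the other Myc targets with 0.932 and the ribosomal proteins with 0.920. For the cell cycle genes r was 0.439. For the Myc family list, which holds Myc, Mycn, Mycl, Max, Mxd1, Mxi1 and Mnt together, it was 0.045.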

How the data were processed

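Single-cell RNA was measured in 7 mouse liver libraries with a 10x Genomics 3′ kit. The authors deposited raw UMI counts per gene and barcode, with no normalization or cell filter. The labels and the study's methods name Cell Ranger 6.0, the latter with intronic reads included, and the file headers name Cell Ranger 4, so which run made the files is not settled. Whether strand was used in counting is not given in the sources used here, and 15 of the 34 members overlap a listed gene on the opposite strand. Npm3 is the member with a named pseudogene, with which reads could be split.

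Cells were called as Cell Ranger does. First came the barcodes with more UMIs than the 99th percentile, divided by 10, among the largest 3000. Then came barcodes of at least 500 UMIs that differed from the ambient profile (ranks 45000 to 90000) at an adjusted Monte Carlo p of 0.01. In this second step at most the 20000 largest barcodes were tested, a limit reached in NEJ634, NEJ709 and NEJ723. Cells were kept above 500 UMIs unless mitochondrial genes gave over 20% of them. In all 8856 cells with the highest doublet scores (0.8% per 1000 cells) and 1988 shared barcodes were left out. Clustering used scanpy 1.11.5 (2000 variable genes, 40 components, 15 neighbors, Leiden resolution 1) without the members and list genes, 145 in all, and clusters were named from 179 markers of 19 classes. Counts were summed per library and class of at least 20 cells. For folds a 0 was set to 3 counts as a bound, which was never called the higher side. The named genes were the 34 members, Mki67, Myc, genes of the lists and the 5 genes most like the sum, of which 1 is not reported here. Members and lists were chosen with earlier results of these data known, and the naming limits and the rule for clusters close to the ambient profile (under 5% of its genes 2-fold away) were set after the data were seen. No test was made, since 0 groups are in the labels. The alternatives tried were another total, equal weight per cell, ambient subtraction, 1.5-fold, a 1-UMI minimum, other reference libraries, resolution 2, other cell calling, a 10% mitochondrial limit, and doublets or shared barcodes kept. Scripts were tested on simulated data.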

Additional observations from a re-analysis of the deposited data

Results flagged for a closer look

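Barcodes within the limits on UMIs and mitochondrial share that were not called as cells were used in no comparison, yet held member UMIs in 6 libraries. Their summed level was 4834 CPM in NEJ634 (46761 barcodes), 4126 in NEJ723 (9585) and 1844 in NEJ709 (10202). In the smaller pools it was 3906 CPM for NEJ687 (834 barcodes), 1039 for NEJ654 (433) and 738 for NEJ677 (237). Relative to the ambient profile of the same library these were 0.977, 1.03 and 0.935, then 0.604, 0.719 and 0.523. The 46761 barcodes of NEJ634 reach into ranks 45000 to 90000, which make up that profile, so its ratio of 0.977 compares overlapping barcodes. In NEJ634, NEJ709 and NEJ723 part of the uncalled barcodes lay beyond the 20000 largest and were never tested against the ambient profile. No such pool is reported for NEJ638, where 2378 of 5529 barcodes tested were called.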

How the results depend on the processing

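No paired analysis was possible because the labels give no groups and no replicate numbers. The ratio between the highest and lowest library over all cells (3.56) was 3.24 without hemoglobin and mitochondrial UMIs, 3.37 with equal weight per cell, 3.66 without clusters close to the ambient profile, 4.803 under the 99th percentile rule alone (NEJ723 over NEJ638), 3.22 with every barcode over 500 UMIs and 3.46 without doublet removal. In hepatocyte-lineage-like cells the ratio was 6.34 with equal weight per cell and 7.58 to 7.92 under the other alternatives. In NEJ634 and NEJ687 33 or 34 members were past the fold and higher under each alternative run, against 16.3% to 38.9% of all genes. In NEJ654 the higher count of 1 was 0 without hemoglobin and mitochondrial UMIs (5.10% of all genes), with ambient RNA subtracted (5.26%), at the 10% mitochondrial limit (5.57%) and without doublet removal (5.21%), and 3 at 1.5-fold (14.9%). Its lower count of 2 was 6 at 1.5-fold (27.0%) and 1 against NEJ677 (3.40%). In NEJ677 the higher count of 2 was 5 at 1.5-fold (17.0%) and 1 against NEJ654 (3.40%), and the lower count of 4 was 8 (35.8%) and 1 (9.12%).

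For erythroid-like over T/NK-like cells, leaving out hemoglobin and mitochondrial UMIs gave 2 higher members in NEJ634 (23.4%), 2 higher (18.5%) and 6 lower (22.6%) in NEJ638, 15 lower in NEJ723 (31.0%) and 6 lower in NEJ687 (31.9%). At 1.5-fold there were 2 higher in NEJ634 (23.7%) and in NEJ638 (14.2%) and 23 lower in NEJ687 (50.1%). A minimum of 1 UMI gave 26 lower in NEJ709 (45.9%). With every barcode over 500 UMIs, where the class takes in the Car1-led cells, 20 were higher in NEJ634 (21.5%), 2 in NEJ723 (21.8%) and 10 in NEJ687 (20.01%), 0 were lower in these 3 (23.1%, 20.96% and 27.2%) and 8 in NEJ709 (27.2%). For the Car1-led cluster the count of 0 in NEJ638 was 1 with every barcode (11.1%) and 5 without doublet removal (13.6%). NEJ723 gave 32 at 1.5-fold (38.6%) and 2 with every barcode (21.8%), and NEJ687 gave 10 with every barcode (20.01%). Promyelocyte counts were 30 to 34, against 29.1% to 58.0% of all genes.

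NEJ709 has too few named cells for firm levels, and pools of 31 to 58 cells rest on few cells. In NEJ638 the pools of 31 and 32 cells also rest on few members' UMIs. Unnamed clusters were followed by shared barcodes: the Car1-led cluster shared 57.1% to 96.8% of its cells with its match and the Cldn7- and Afp-led cluster 9.67% to 88.0%. Shares of cells with a member UMI were also computed after thinning and are not reported, since ambient RNA at the levels given can itself put a member UMI in a cell.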
